A study of Mus musculus with 42 samples.

Results

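Regulatory T cells (Treg) sorted from the ankle synovium were compared with Treg sorted from the inguinal and popliteal lymph nodes that drain the same joints. The members are 11 of the 42 bulk RNA libraries of the study, chosen by their labels: 5 Treg libraries of synovium and 6 Treg libraries of joint-draining nodes. The synovial libraries were 3 from TNFdARE mice (replicates A, B and C) and 2 from WT littermates (A and B), and the node libraries were 3 from each genotype. Replicate letters name the independent experiments, and the genotypes were weighted equally, so that the main comparison averages the synovium against node difference of TNFdARE and WT mice. All groups, controls included, also carried the DEREG transgene, a reporter in which the Foxp3 promoter drives a green fluorescent protein fused to the diphtheria toxin receptor. Treg were the CD4 T cells gated as reporter-positive and conventional CD4 T cells (Tconv) those gated as reporter-negative, so that sorting rested on Foxp3 promoter activity and not on the Foxp3 message itself. TNFdARE mice lack AU-rich elements in the Tnf gene, overproduce TNF and develop arthritis and ileitis, a model of spondyloarthritis. The labels give no age, sex, strain, disease score, agent or number of animals per library, and p-values therefore measure the spread between libraries.

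Treg restrain immune responses through surface receptors such as CTLA-4 and through secreted mediators such as interleukin-10. In lymphoid organs many Treg keep a naive-like state, with CCR7 for entry into nodes and with the transcription factors TCF-1, LEF1 and BACH2. Treg of non-lymphoid tissues are known in mice for BATF, GATA3, PPARG and BLIMP-1, for the interleukin-33 receptor ST2, for KLRG1, and for the repair factor amphiregulin. The comparison asks how far Treg of the joint lining differ from those of the nodes that serve it.

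Each synovial library held markers of the Treg lineage. Levels are given as CPM, read counts scaled to a common library total and not to gene length. Foxp3, the transcription factor that defines Treg, stood at 1391, 1452 and 1433 CPM in TNFdARE synovium and 1219 and 578 CPM in WT synovium, against 1243, 1118 and 1159 CPM in TNFdARE nodes and 1287, 1130 and 1099 CPM in WT nodes. The 3 TNFdARE synovial libraries were above each node library, WT synovium A lay inside the node range and WT synovium B below it. Foxp3 message was thus present in all 11 libraries, but WT synovium B lay below the TNFdARE synovial libraries labelled Tconv, described below. Foxp3 did not pass the edgeR quasi-likelihood test between the sites (log2 fold change -0.05 ± 0.16, adjusted p = 0.84). It was lower in fits without WT synovium A, which leave WT synovium B alone in its group. Over all alternative fits its log2 fold change ran from -0.39 to 0.31. Total counts were 18749206 to 23736397 per library, while genes with at least 1 count numbered 13341 to 20171 in synovium and 18982 to 19801 in nodes, out of 46603. Log2 CPM correlated less well among replicates of synovium (Pearson's r over genes 0.852 to 0.895 in TNFdARE and 0.785 in WT) than among node replicates (0.98 to 0.986), which describes single library pairs and not samples.

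The synovial libraries also carried transcripts of other cells. Summed over 15 fibroblast and synovial stroma markers, the level was 6585, 9836 and 1994 CPM in TNFdARE synovium and 19860 and 19880 CPM in WT synovium, against 95.9 to 109 CPM in the nodes. Stromal RNA was therefore highest in the WT synovial libraries, and no synovial library was free of it. Col6a1, Lum, Pdgfrb and Mmp3 were at 0 in each node library. Thy1, also in this list, did not pass between the sites, and its part in the node sums was not tested. The 9 B cell markers summed to 18.3 to 38.4 CPM in TNFdARE synovium and 114 and 110.3 CPM in WT synovium, against 25.01 to 35.8 CPM in the nodes. Of the 6 tested, Ebf1 was higher (4.38 to 105 CPM in synovium against 0 to 0.177 CPM in nodes, adjusted p = 2.83e-05) and 2 were lower, while Ms4a1, Pax5 and Fcmr were at 0 in each synovial library. Macrophage markers, 12 in the list, summed to 42.2, 32.2 and 3.89 CPM in TNFdARE synovium and 379 and 48.4 CPM in WT synovium, against 10.8 to 27.3 CPM in the nodes. WT synovial library A stood apart with red cell markers at 360 CPM, adipocyte markers at 438 CPM and mast cell markers at 227 CPM. Markers of group 2 innate lymphoid cells, 8 genes that include Gata3 and Il1rl1 of tissue Treg, summed to 770.3 to 1687 CPM in synovium, against 238 to 362 CPM in the nodes, with Il13 and Rxrg at 0 in each node library. The part of these other cells in the results below was not tested. In bulk samples, fewer cells of a type and less RNA per cell cannot be told apart.

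**Figure D1:**
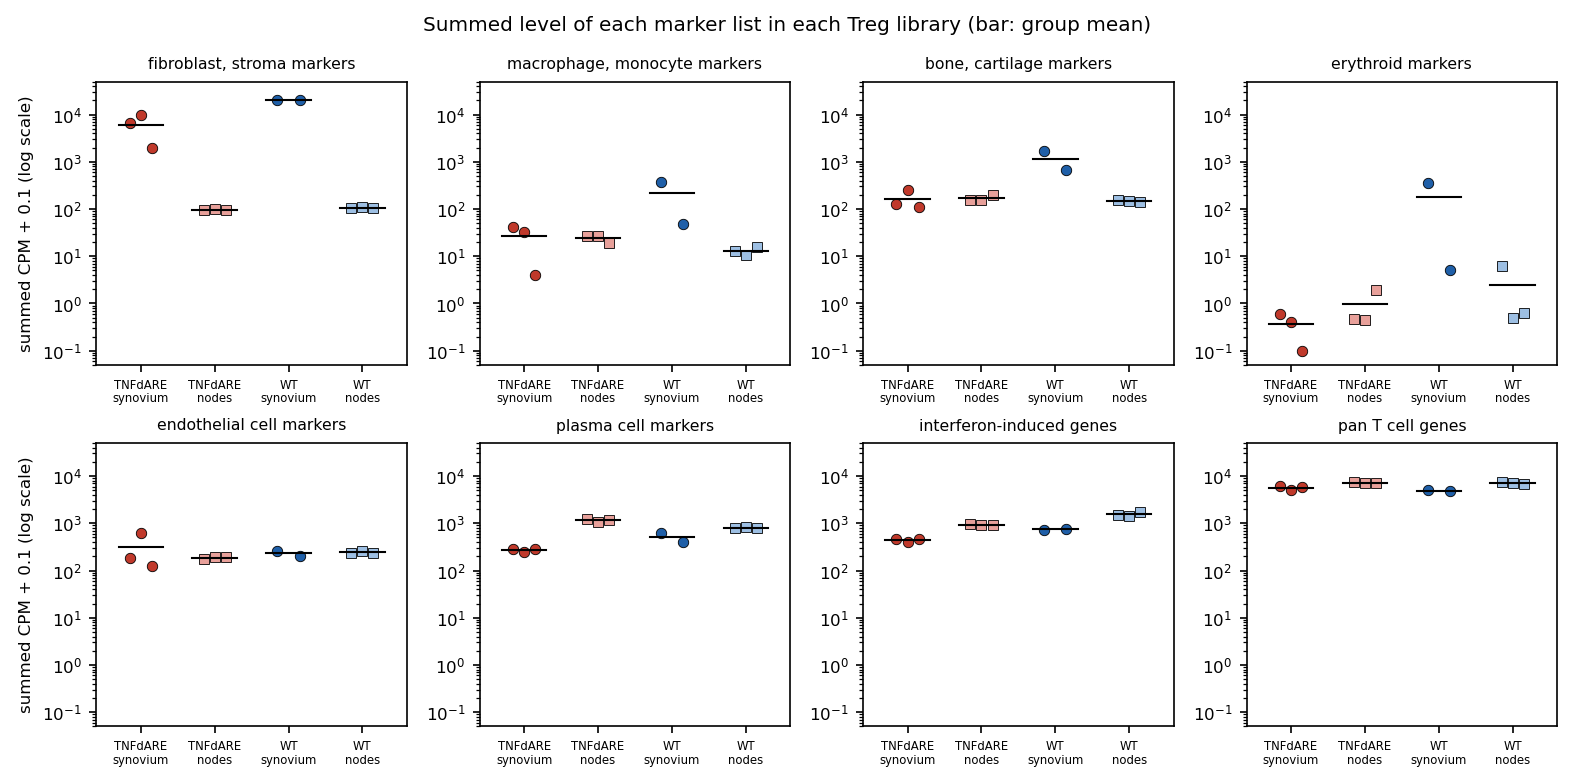
Summed CPM of 8 gene lists in each of the 11 Treg libraries (log axis, 0.1 added), for TNFdARE synovium, TNFdARE nodes, WT synovium and WT nodes. Stroma markers lie between 1994 and 19880 CPM in synovium and between 95.9 and 109 CPM in nodes, while the interferon and pan T cell lists lie lower in synovium.

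A further split follows the labels. Each library carries an S number, whose meaning the labels do not give, in a first run of 1 to 32 and a second run of 33 to 44. Of the synovial libraries, 4 of 5 fell in the second run, against 1 of 6 node libraries. Site and S number are therefore largely confounded, and results are given below within each run where a library of each site allows it.

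Counts were tested with edgeR's quasi-likelihood F test over 16378 genes that passed its filter on low counts, with Benjamini-Hochberg adjustment over all of them, and a gene passed below 0.05. Between synovium and nodes, 6177 genes passed (37.7%), 3140 of them higher (19.2%) and 3037 lower (18.5%) in synovium. The median log2 fold change of all tested genes was -0.09, and scaling by total counts alone in place of TMM factors shifted it to -0.22. Values of the 2 sites did not overlap for 3812 of the 16378 genes (23.3%), and for 1611 of the higher (51.3%) and 1752 of the lower genes (57.7%). With S number run as a covariate 3639 genes passed. Higher genes made up 50.8% of the calls, against 64.9% with limma-voom and 39.6% without WT synovium B. Within the second run, WT node C is the lone node library and is assumed to vary like the synovial libraries. The first run holds 1 synovial library, TNFdARE synovium B, and is used for values only. With 1 library on one side of each run, the number of genes that passed within a run is not given. Whether calls lost within a run reflect the run or the few libraries was not tested.

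Il10, Areg, Klrg1 and Ccr1 were given beforehand as markers of synovial Treg, and their values describe them without being an independent finding. Il10 encodes the suppressive cytokine IL-10, and lies on chromosome 1, 131019845 to 131024974 (GRCm38). Its level was 444, 280.2 and 430.2 CPM in TNFdARE synovium and 120.2 and 159 CPM in WT synovium, against 3.81, 2.79 and 1.89 CPM in TNFdARE nodes and 2.91, 2.13 and 2.48 CPM in WT nodes. The lowest synovial library, WT synovium A, was far above the highest node library. Il10 was 86.8-fold higher (log2 fold change 6.44 ± 0.23, adjusted p = 1.14e-07) in synovium, where ± gives the standard error of the fit. Areg, which encodes the epidermal growth factor receptor ligand amphiregulin (chromosome 5, 91139599 to 91148432), was present at 448, 282 and 525 CPM in TNFdARE synovium and 544 and 425 CPM in WT synovium, against 8.85, 5.91 and 3.59 CPM in TNFdARE nodes and 5.08, 4.55 and 2.83 CPM in WT nodes. TNFdARE synovium B was the lowest of the synovial libraries, far from any node library, and Areg was 89-fold higher (log2 fold change 6.48 ± 0.30, adjusted p = 4.64e-07).

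Klrg1, an inhibitory receptor of differentiated lymphocytes that binds cadherins (chromosome 6, 122270596 to 122282882), stood at 1114, 1015 and 1239 CPM in TNFdARE synovium and 383 and 325 CPM in WT synovium, against 64.8, 56.7 and 52 CPM in TNFdARE nodes and 30.2, 31.7 and 32.5 CPM in WT nodes. TNFdARE libraries were higher than WT libraries within each site, and the sites did not overlap. The difference of sites was 14.8-fold higher (log2 fold change 3.89 ± 0.10, adjusted p = 2.6e-08). Ccr1, a receptor for inflammatory CC chemokines (chromosome 9, 123962124 to 123968692), stood at 156, 216 and 214 CPM in TNFdARE synovium and 145 and 53.5 CPM in WT synovium, against 2.21, 2.03 and 1.84 CPM in TNFdARE nodes and 0.695, 0.71 and 1.47 CPM in WT nodes. WT synovium B was the lowest synovial library and still above each node library, and Ccr1 was 99.9-fold higher (log2 fold change 6.64 ± 0.33, adjusted p = 6.77e-07). Within the first run of S numbers, in TNFdARE mice, the log2 fold changes were 6.62 for Il10, 5.52 for Areg, 4.13 for Klrg1 and 6.72 for Ccr1. Within the second run, in WT mice, they were 5.82 for Il10, 7.41 for Areg, 3.45 for Klrg1 and 6.07 for Ccr1. With 1 library on one side of each run, these are values without a test.

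**Figure D2:**
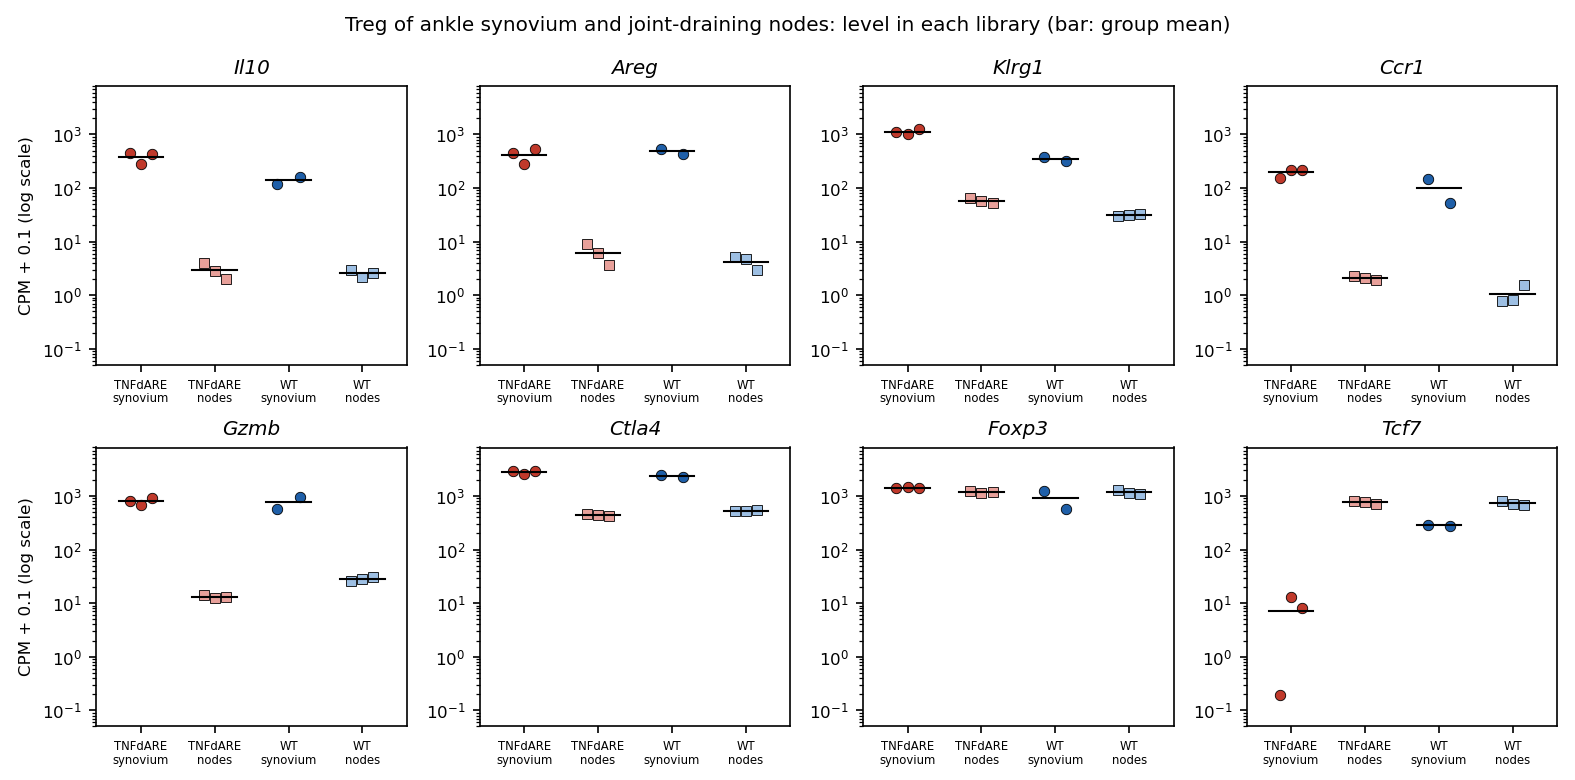
CPM (log axis, 0.1 added) of 8 genes in each of the 11 Treg libraries, in the order TNFdARE synovium, TNFdARE nodes, WT synovium and WT nodes; points are libraries and bars are group means. Il10, Areg, Klrg1, Ccr1, Gzmb and Ctla4 lie higher in each synovial library than in any node library, Tcf7 lies lower, and Foxp3 overlaps.

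Of 14 secreted effector molecules of Treg, 13 were tested and 9 were higher in synovium (median log2 fold change 3.29, against -0.09 for all genes). None was lower by edgeR, and 1 was at an unadjusted p under 0.05, 1 with DESeq2 and 0 with limma-voom. Gzmb, the protease granzyme B, had the smallest adjusted p of the list and stood at 818, 687 and 904 CPM in TNFdARE synovium and 581 and 971 CPM in WT synovium, against 14.2, 12.3 and 12.7 CPM in TNFdARE nodes and 25.9, 28.1 and 30.02 CPM in WT nodes. No library of one site reached the other, and Gzmb was 41.2-fold higher (log2 fold change 5.37 ± 0.16, adjusted p = 3.64e-08). Fgl2, a secreted fibrinogen-like suppressor, ran at 453 to 1141 CPM in synovium against 69.9 to 106 CPM in nodes (log2 fold change 3.29 ± 0.16, adjusted p = 5.5e-07). Tgfb3, a TGF-beta isoform, was also higher (10.9 to 41.2 CPM in synovium against 0.38 to 1.04 CPM in nodes; log2 fold change 5.42 ± 0.44), whereas Tgfb1, the isoform usually linked to Treg, did not pass (-0.45 ± 0.16, adjusted p = 0.0511).

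Vegfa, an angiogenic factor, was 22.5-fold higher, Lgals1, a glycan-binding protein with suppressive effects on T cells, 3.96-fold higher, and Hbegf, another ligand of the epidermal growth factor receptor, 2.02-fold higher. Penk, which encodes the enkephalin precursor, was 3.97-fold higher over both genotypes but differed between them. It stood at 794, 619.8 and 601 CPM in TNFdARE synovium and 338 and 208 CPM in WT synovium, against 345, 257 and 292 CPM in TNFdARE nodes and 41, 31.6 and 44.4 CPM in WT nodes. The WT nodes were far below the TNFdARE nodes. Differences between genotypes are given with an adjusted p and, called blocked, with that of a fit that adds the experiment letter. The site difference was smaller in TNFdARE (log2 fold change 1.17 ± 0.21) than in WT mice (2.81 ± 0.24; adjusted p of the difference = 0.0349, 0.0501 blocked). Ebi3 and Il12a, the chains of IL-35, did not pass (log2 fold changes 0.12 and 5.41, the second at 0 in most libraries). Most of the list's calls were lost within the second run of S numbers, a fit with 1 node library.

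The promoters of Areg and Gzmb are shown because these genes are among the effectors with the largest differences and hold matches to the response element of cyclic AMP (TGACGTCA) and to the AP-1 site (TGANTCA). Each window is the 250 bases before the RefSeq transcription start (build GRCm38.p6), written 5′ to 3′ on the strand of the gene, with the match in capitals and both strands searched. Areg is at chr5:91139349-91139598 (plus strand) with the match starting at position -61, where -1 is the last base before the start, and Gzmb at chr14:56262335-56262584 (minus strand) with the match at -58.
Areg: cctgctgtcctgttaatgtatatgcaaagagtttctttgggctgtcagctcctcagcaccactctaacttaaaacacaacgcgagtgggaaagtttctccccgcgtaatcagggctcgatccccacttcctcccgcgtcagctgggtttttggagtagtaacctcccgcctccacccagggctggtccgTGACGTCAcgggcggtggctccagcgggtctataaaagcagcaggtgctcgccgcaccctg
Gzmb: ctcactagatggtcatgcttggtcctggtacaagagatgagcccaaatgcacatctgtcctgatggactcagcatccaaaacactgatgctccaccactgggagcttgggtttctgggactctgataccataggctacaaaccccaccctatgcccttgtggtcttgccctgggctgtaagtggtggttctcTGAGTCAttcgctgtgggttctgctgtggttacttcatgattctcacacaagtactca
Of the 9 secreted effectors with a window, 1 held the first motif (Areg) and 3 the AP-1 motif (Fgl2, Gzmb and Il1rn), against 478 (1.77%) and 2113 (7.82%) of 27025 genes with a window. A match describes the letters only. RefSeq windows for Il10 and Klrg1 were not used here.

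Transcription factors tied to effector and tissue Treg moved together. Of 22, 20 were higher in synovium (median 2.50), a shift also seen in the synovial libraries labelled Tconv, given below. None was lower by edgeR, at an unadjusted p under 0.05, with DESeq2 or with limma-voom. Within the second run of S numbers, with 1 node library, most of these calls were lost. So were most calls of the chemokine receptors and naive genes described below. The median there was 2.13 for these factors and -1.74 for the interferon-induced genes. The smallest adjusted p-values belonged to Nfil3, Rora, Hif1a and Pparg. Rora, the nuclear receptor ROR-alpha, stood at 1109, 1065 and 1164 CPM in TNFdARE synovium and 546 and 951 CPM in WT synovium, against 142, 122 and 100.5 CPM in TNFdARE nodes and 70.8, 79.8 and 64.9 CPM in WT nodes. WT synovium A was the lowest synovial library, above all nodes, and Rora was 9.76-fold higher (log2 fold change 3.29 ± 0.16, adjusted p = 5.5e-07). Nfil3 ran at 177 to 300 CPM in synovium against 11.7 to 17.7 CPM in nodes (4.11 ± 0.17, adjusted p = 2.8e-07), and Hif1a, the oxygen-regulated factor HIF-1-alpha, ran at 703 to 1884 CPM in synovium against 266 to 366 CPM in nodes (1.95 ± 0.11, adjusted p = 1.58e-06). Id2, which holds back E proteins, ran at 629.8 to 1739 CPM in synovium against 49.3 to 158 CPM in nodes (3.44 ± 0.21, adjusted p = 2.49e-06).

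Pparg, the lipid-sensing nuclear receptor of adipose tissue Treg, stood at 150.5, 118 and 81.2 CPM in TNFdARE synovium and 85 and 49.5 CPM in WT synovium, against 3.05, 3.04 and 1.07 CPM in TNFdARE nodes and 0.391, 0.71 and 0.304 CPM in WT nodes. All synovial libraries were above all node libraries, and Pparg was 83-fold higher (log2 fold change 6.37 ± 0.38, adjusted p = 2.3e-06). Adipocytes also express Pparg, and the adipocyte markers summed to 27.9 to 438 CPM in synovium against 0.533 to 1.145 CPM in nodes, and their part in the Pparg value was not tested. Gata3 (1.29), Maf (1.39), Irf4 (1.25) and Batf (1.00) also passed, with smaller log2 fold changes. Zeb2 and Epas1, low in the nodes, passed as well (14.1 to 77.5 CPM in synovium against 0.0422 to 1.2 CPM in nodes; 1.3 to 33 CPM in synovium against 0.0434 to 0.861 CPM in nodes).

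Prdm1, which encodes BLIMP-1, was higher over both genotypes (log2 fold change 1.20 ± 0.29, adjusted p = 0.00934) with an uneven spread. Its level was 195, 241 and 229.7 CPM in TNFdARE synovium and 24.9 and 97.1 CPM in WT synovium, against 61.4, 49.2 and 41.3 CPM in TNFdARE nodes and 47.2, 49.9 and 55 CPM in WT nodes. WT synovium A, at 24.9 CPM, was below every node library. Ahr, the aryl hydrocarbon receptor, did not pass (1.20 ± 0.82, adjusted p = 0.28): it ran at 193 to 276 CPM in TNFdARE synovium against 76.4 to 114 CPM in TNFdARE nodes, while WT synovium A held 0.104 CPM and WT synovium B 122 CPM. Tbx21, the type 1 factor T-bet, did not pass (0.42 ± 0.86, adjusted p = 0.741).

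Receptors for inflammatory chemokines formed another group. The list, called chemokine receptors here and below, also holds the leukotriene receptor gene Ltb4r1. Of its 17 genes, 11 were higher, 2 lower and 4 did not pass (median 2.60). Cxcr6, which binds the membrane chemokine CXCL16, stood at 395, 427 and 215 CPM in TNFdARE synovium and 139 and 524 CPM in WT synovium, against 20.01, 20.1 and 14.5 CPM in TNFdARE nodes and 10.6, 11 and 10.6 CPM in WT nodes. Synovial libraries were all above the nodes, and Cxcr6 was 24.2-fold higher (log2 fold change 4.60 ± 0.35, adjusted p = 9.51e-06). Ltb4r1, the high-affinity leukotriene B4 receptor, ran at 55 to 224 CPM in synovium against 1.94 to 6.24 CPM in nodes (4.93 ± 0.23, adjusted p = 4.64e-07). Ccr2, the receptor for CCL2, ran at 365 to 954 CPM in synovium against 49 to 84.2 CPM in nodes (3.29 ± 0.19, adjusted p = 1.92e-06) and Ccr8, a receptor typical of tissue Treg, at 236 to 1226 CPM in synovium against 53.8 to 129.5 CPM in nodes (2.65 ± 0.13, adjusted p = 6.75e-07).

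The 2 lower receptors were Ccr9, which directs T cells to the small intestine, and Cxcr5, which directs them to B cell follicles. Ccr9 was at 0 in 4 of 5 synovial libraries and at 0.729 CPM in TNFdARE synovium B, against 10.3 to 17.2 CPM in the nodes. In WT mice, where synovium held no count, this was at least 163-fold lower, with a floor of 3 counts over the group. Cxcr5 ran at 0.32 to 6.59 CPM in synovium against 24.4 to 44.2 CPM in nodes (-3.77 ± 0.80, adjusted p = 0.00539). Ccr6 (-0.27 ± 0.21) and Cxcr3 (0.23 ± 0.26), receptors of type 17 and type 1 cells, did not pass. Without WT synovium B, the counts were 10 higher and 4 lower.

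Integrins and adhesion molecules were mixed, with 10 of 19 higher and 4 lower (median 0.51). Among the higher were Cd44, the hyaluronan receptor (166 to 1384 CPM in synovium against 134 to 197 CPM in nodes; 2.24 ± 0.30, adjusted p = 0.000383), Itgav, the alpha-V chain that takes part in TGF-beta activation (268 to 1001 CPM in synovium against 72.4 to 116 CPM in nodes; 2.35 ± 0.20, adjusted p = 2.32e-05), and Cd69, an early activation and retention molecule (1189 to 1908 CPM in synovium against 283 to 421 CPM in nodes; 2.15 ± 0.13, adjusted p = 2.38e-06). Itgb8, the usual partner of alpha-V in Treg, did not pass (0.10 ± 0.53). Itga6, Itgal, Itgb2 and Selplg were lower, by 1.71, 0.71, 0.31 and 0.27 on the log2 scale. Itgb1 and Vcam1 differed by genotype with edgeR, but not with the block or with limma-voom. For Itgb1 the site difference was -0.60 ± 0.21 in TNFdARE and 1.36 ± 0.23 in WT mice, and for Vcam1 1.10 ± 0.50 in TNFdARE and 6.07 ± 0.65 in WT mice (adjusted p of each difference = 0.0176, 0.0643 blocked for Itgb1 and 0.0548 blocked for Vcam1). Vcam1 stood at 108, 65.3 and 31 CPM in TNFdARE synovium and 66.2 and 34.6 CPM in WT synovium, against 38.9, 26.9 and 29.2 CPM in TNFdARE nodes and 0.695, 0.332 and 1.22 CPM in WT nodes, so that the WT nodes were the low group.

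Co-inhibitory receptors gave 6 higher and 4 lower of 12 (median 0.97). Ctla4, which removes CD80 and CD86 from antigen-presenting cells, stood at 2934, 2524 and 2940 CPM in TNFdARE synovium and 2405 and 2286 CPM in WT synovium, against 469.5, 433 and 427 CPM in TNFdARE nodes and 514, 519 and 534 CPM in WT nodes. Neither genotype's libraries overlapped between the sites, and Ctla4 was 5.33-fold higher (log2 fold change 2.41 ± 0.08, adjusted p = 5.84e-08). Havcr2 (TIM-3) ran at 38.1 to 170.3 CPM in synovium against 5.34 to 10.4 CPM in nodes (3.32 ± 0.20, adjusted p = 2.49e-06), and Tigit at 33.8 to 161 CPM in synovium against 22.3 to 39.7 CPM in nodes (1.48 ± 0.19, adjusted p = 0.000286). Pdcd1 (PD-1) was 4.55-fold higher in TNFdARE synovium than in TNFdARE nodes and did not pass in WT mice (0.41 ± 0.22); these differed with adjusted p = 0.0264, 0.0501 blocked. Btla, Cd160, Cd244a and Vsir were lower. Btla, a receptor of resting lymphocytes that binds HVEM, ran at 12.8 to 66.5 CPM in synovium against 130.5 to 158 CPM in nodes (-1.94 ± 0.20, adjusted p = 6.48e-05).

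Among 11 costimulatory receptors 7 were higher and 2 lower (median 0.91). Tnfrsf9 (4-1BB) stood at 3181, 3031 and 3595 CPM in TNFdARE synovium and 469 and 813 CPM in WT synovium, against 320.4, 293 and 273 CPM in TNFdARE nodes and 227, 199 and 225 CPM in WT nodes. TNFdARE synovium was the highest group, and the log2 fold change was 3.47 ± 0.20 in TNFdARE and 1.56 ± 0.20 in WT mice (adjusted p of the difference = 0.0139, 0.063 blocked). Icos ran at 1310 to 1925 CPM in synovium against 378 to 476 CPM in nodes (1.92 ± 0.09, adjusted p = 5.19e-07), Tnfrsf4 (OX40) at 1079 to 2190 CPM in synovium against 399 to 568 CPM in nodes (1.67 ± 0.13, adjusted p = 1.03e-05) and Cd28 at 654 to 845 CPM in synovium against 277 to 434 CPM in nodes (1.154 ± 0.09, adjusted p = 1.2e-05). Tnfrsf1b, the TNF receptor TNFR2 that supports Treg, ran at 689.6 to 1240 CPM in synovium against 421 to 706 CPM in nodes (0.76 ± 0.08, adjusted p = 6.92e-05). Cd27 fell by 1.26 on the log2 scale and Tnfrsf25 by 0.25.

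Receptors of the interleukin-1 family were higher for 4 of 9 and not called for 5 (median 0.70). Il1rl1, which encodes the IL-33 receptor ST2, stood at 784, 822 and 1077 CPM in TNFdARE synovium and 432 and 360.4 CPM in WT synovium, against 92.8, 72.3 and 79.2 CPM in TNFdARE nodes and 36, 43 and 48.9 CPM in WT nodes. TNFdARE synovium was the highest group, and Il1rl1 was 10.1-fold higher (log2 fold change 3.34 ± 0.13, adjusted p = 2.03e-07). Il18rap, a chain of the IL-18 receptor, ran at 76.4 to 113 CPM in synovium against 8.57 to 31.2 CPM in nodes (2.46 ± 0.15, adjusted p = 2.3e-06). Il1r1 was 121-fold higher with values between 0.84 and 133 CPM in synovium and 0.127 and 1.11 CPM in nodes. Fibroblasts express Il1r1 too, and the part of the stromal RNA in its value was not tested. Il1r2, the decoy receptor, did not pass (1.56 ± 0.74, adjusted p = 0.125). It stood at 479, 357 and 345 CPM in TNFdARE synovium and 1.4 and 205 CPM in WT synovium, against 226, 166 and 145 CPM in TNFdARE nodes and 22.6, 27.4 and 28.3 CPM in WT nodes, with WT synovium A far below every other library.

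Of 20 other cytokine receptors 7 were higher and 6 lower. Ifngr1, the ligand-binding chain of the interferon-gamma receptor, rose to 1633 to 2246 CPM in synovium against 311 to 456 CPM in nodes (2.28 ± 0.10, adjusted p = 4.38e-07), while its partner Ifngr2 fell by 0.66 on the log2 scale. Il10ra (1.25), Il9r (1.95) and Il12rb1 (1.05) were higher, and Il6ra (-1.62), Il17ra (-0.85) and Il27ra (-0.80) lower, as log2 fold changes.

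Genes of naive cells and node retention were lower in synovial Treg. Of 16, 13 were lower, and Il7r, the IL-7 receptor, was the 1 that was higher (0.78 ± 0.18); the median was -2.13. Bach2, a repressor that keeps T cells from effector differentiation, stood at 10.3, 7.03 and 6.67 CPM in TNFdARE synovium and 23.3 and 5.97 CPM in WT synovium, against 92.1, 101 and 116 CPM in TNFdARE nodes and 133, 132 and 130.2 CPM in WT nodes. All synovial libraries were below all node libraries, and Bach2 was 10.8-fold lower (log2 fold change -3.43 ± 0.33, adjusted p = 4.92e-05). Satb1, a chromatin organiser, ran at 26.5 to 141 CPM in synovium against 288 to 491 CPM in nodes (-2.70 ± 0.16, adjusted p = 1.77e-06).

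Tcf7, which encodes TCF-1, differed between the genotypes with edgeR, but not with the block or with limma-voom. It stood at 0.0913, 12.9 and 8.07 CPM in TNFdARE synovium and 289 and 272 CPM in WT synovium, against 805, 760.1 and 719 CPM in TNFdARE nodes and 804, 712 and 668 CPM in WT nodes. TNFdARE synovium was the lowest group, and WT synovium lay between it and the nodes. The log2 fold change was -6.77 ± 0.94 in TNFdARE and -1.38 ± 0.85 in WT mice, the second not past the test (adjusted p = 0.258), and the adjusted p of the difference was 0.0499, 0.131 blocked. Bcl2, a survival factor, fell in both genotypes, by 4.55 on the log2 scale in TNFdARE and by 2.63 in WT mice (adjusted p of the difference = 0.0313, 0.0776 blocked), and Klf3 fell by 2.31 in TNFdARE and by 0.96 in WT mice (0.0316, 0.048 blocked). Ccr7 (22.8 to 224 CPM in synovium against 464 to 538 CPM in nodes), Lef1 and S1pr1 were lower over both genotypes (-2.47, -1.82 and -1.03 as log2 fold changes), with differences between the genotypes that did not pass. In TNFdARE mice alone 15 of the 16 genes were lower, and in WT mice 7, where 12% of all genes were lower. Klf2, a regulator of S1pr1, did not pass over both (-0.18 ± 0.15).

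The 15 genes of Treg identity did not move one way, with 4 higher, 6 lower and 5 not past the test (median -0.06). Ctla4, Cd83, Tnfrsf18 (GITR) and Capg were the higher ones. The lower ones were Gpr83, Izumo1r (folate receptor 4), Lrrc32, Ikzf4, Nrp1 and Il2rb. Gpr83, an orphan receptor of resting Treg, stood at 7.53, 2.55 and 1.68 CPM in TNFdARE synovium and 28 and 16.5 CPM in WT synovium, against 182, 195 and 266 CPM in TNFdARE nodes and 302, 282 and 312 CPM in WT nodes. TNFdARE synovium was the lowest group, and Gpr83 was 27-fold lower (log2 fold change -4.76 ± 0.40, adjusted p = 1.81e-05).

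For 3 of these genes the site difference differed between the genotypes by edgeR, but not with the experiment letter as a block or with limma-voom. Il2ra, the alpha chain of the IL-2 receptor, stood at 1135, 1424 and 1504 CPM in TNFdARE synovium and 438 and 691 CPM in WT synovium, against 761, 815 and 806 CPM in TNFdARE nodes and 1104, 981 and 1065 CPM in WT nodes. TNFdARE synovium was above its nodes and WT synovium below, with log2 fold changes of 0.77 ± 0.17 and -0.89 ± 0.19 and an adjusted p of 0.0174, 0.0538 blocked for their difference. Lrrc32 encodes GARP, the surface anchor of latent TGF-beta, and stood at 124, 105 and 83.6 CPM in TNFdARE synovium and 464 and 282 CPM in WT synovium, against 433, 459 and 434 CPM in TNFdARE nodes and 543, 483 and 519 CPM in WT nodes. It fell by 2.09 on the log2 scale in TNFdARE mice, against -0.47 ± 0.21 in WT mice (adjusted p of the difference = 0.0257, 0.063 blocked). Nrp1, neuropilin-1, which marks thymus-derived Treg, gave -1.54 ± 0.18 in TNFdARE and -0.21 ± 0.20 in WT mice (0.0438, 0.0997 blocked); here the TNFdARE nodes, at 637 to 656 CPM, were above the WT nodes, at 336 to 358 CPM.

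**Figure D3:**
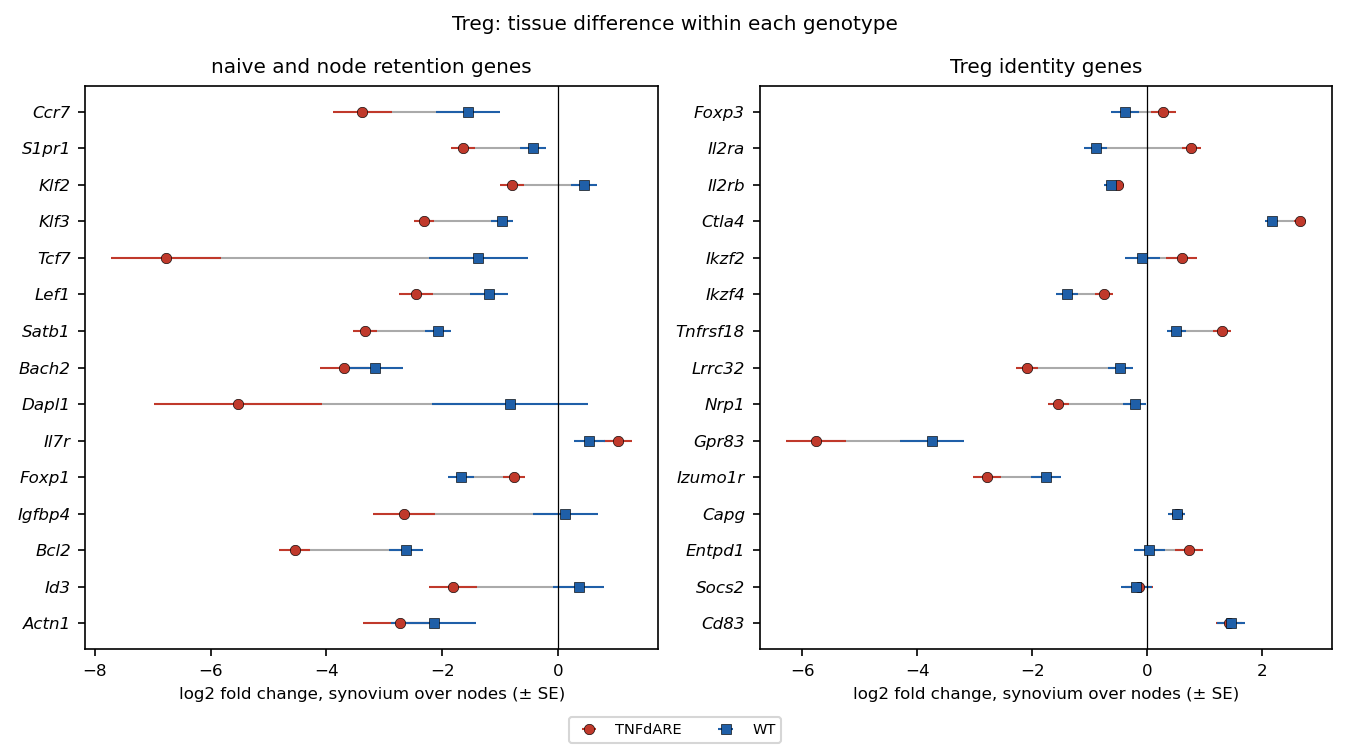
Log2 fold change ± SE of synovium over joint nodes in TNFdARE and in WT Treg for genes of the naive and node retention list and of the Treg identity list, from the fit of 11 libraries. Tcf7 lies at -6.77 in TNFdARE and -1.38 in WT mice, and Il2ra lies on opposite sides of 0.

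The genotypes were compared over all genes by testing the difference of their site differences. Of 16378 genes 278 passed (1.7%), 202 higher in TNFdARE, and with the experiment letter as a block 15 did. Of the 19 list members among the 278, Klf3 passed with the block, all 19 passed with DESeq2 and 0 with limma-voom, and all 19 kept their sign under the block. The smallest p-values belonged to Cst3, Zfp623, Tmem35b, Pcmtd1, Myc, Zfp658, Zfp60 and Zfp113. Cst3, the protease inhibitor cystatin C, stood at 146, 138 and 138 CPM in TNFdARE synovium and 533 and 464 CPM in WT synovium, against 61.3, 54.4 and 60.3 CPM in TNFdARE nodes and 50.3, 40.2 and 43 CPM in WT nodes. WT synovium was the highest group, as it was for stroma markers. The log2 fold change was 1.26 ± 0.11 in TNFdARE and 3.48 ± 0.13 in WT mice. Myc, the growth regulator, stood at 66.3, 54.3 and 67.6 CPM in TNFdARE synovium and 182 and 201 CPM in WT synovium, against 241, 254 and 263 CPM in TNFdARE nodes and 267, 257 and 256 CPM in WT nodes. It fell by 2.01 on the log2 scale in TNFdARE and by 0.44 in WT mice (adjusted p of the difference = 0.00456, 0.0407 blocked).

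Pcmtd1 went opposite ways, with 159.9 to 213 CPM in TNFdARE synovium against 82.5 to 94.8 CPM in TNFdARE nodes and 45.9 to 48.3 CPM in WT synovium against 85.3 to 94.8 CPM in WT nodes. The 4 zinc finger genes and Tmem35b were at or near 0 in both WT synovial libraries, where for Zfp113 the WT difference was at least 431-fold lower, and were detected in TNFdARE synovium at 3.97 to 12.9 CPM in that case. Over all genes in the WT comparison 4055 passed (24.8%) and in TNFdARE mice alone 3216 did (19.6%).

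Within TNFdARE mice alone, 3 synovial against 3 node libraries, 1820 genes were higher (11.1%) and 1396 lower (8.52%). Higher genes made up 56.6% of the calls, and 45.7% when libraries were scaled by total counts alone. The smallest p-values among higher genes included Pcsk1, Lmna, Anxa1 and Lgals3. Pcsk1, a prohormone convertase that also processes proenkephalin, stood at 658, 688 and 619 CPM in TNFdARE synovium and 62.2 and 53.4 CPM in WT synovium, against 0.974, 0.633 and 0.583 CPM in TNFdARE nodes and 0.869, 0.332 and 0.354 CPM in WT nodes. TNFdARE synovium exceeded WT synovium by an order of magnitude, and the log2 fold change was 9.79 ± 0.33 in TNFdARE and 6.76 ± 0.31 in WT mice (adjusted p of the difference = 0.0139, 0.0501 blocked). Lmna, which encodes lamin A, was 177-fold higher (3846 to 4755 CPM in TNFdARE synovium against 19 to 34.4 CPM in TNFdARE nodes), Anxa1, a pro-resolving phospholipid-binding protein, 80.8-fold higher (218 to 350.5 CPM in TNFdARE synovium against 2.49 to 4.12 CPM in TNFdARE nodes), and Lgals3, a galectin, 31-fold higher (355 to 410.5 CPM in TNFdARE synovium against 10.3 to 13.8 CPM in TNFdARE nodes).

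Genes lower in TNFdARE synovium included Capn3, a calpain protease (3.23 to 6.53 CPM in TNFdARE synovium against 88 to 98.4 CPM in TNFdARE nodes; -4.29 ± 0.27, adjusted p = 6.29e-06), Card6 (0.0457 to 6.3 CPM in TNFdARE synovium against 107 to 120.3 CPM in TNFdARE nodes; -5.36 ± 0.94, adjusted p = 0.00328) and the interferon-inducible Ifi213 (0 to 2.03 CPM in TNFdARE synovium against 24.5 to 31.5 CPM in TNFdARE nodes; -5.40 ± 1.20, adjusted p = 0.011). Leaving out TNFdARE node C gave 1924 calls and leaving out WT synovium A, which shares the estimate of spread, gave 5149. In TNFdARE mice alone 9 of 13 secreted effectors, 18 of 22 transcription factors and 9 of 17 chemokine receptors were higher, and 7 of 22 interferon-induced genes were lower.

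**Figure D4:**
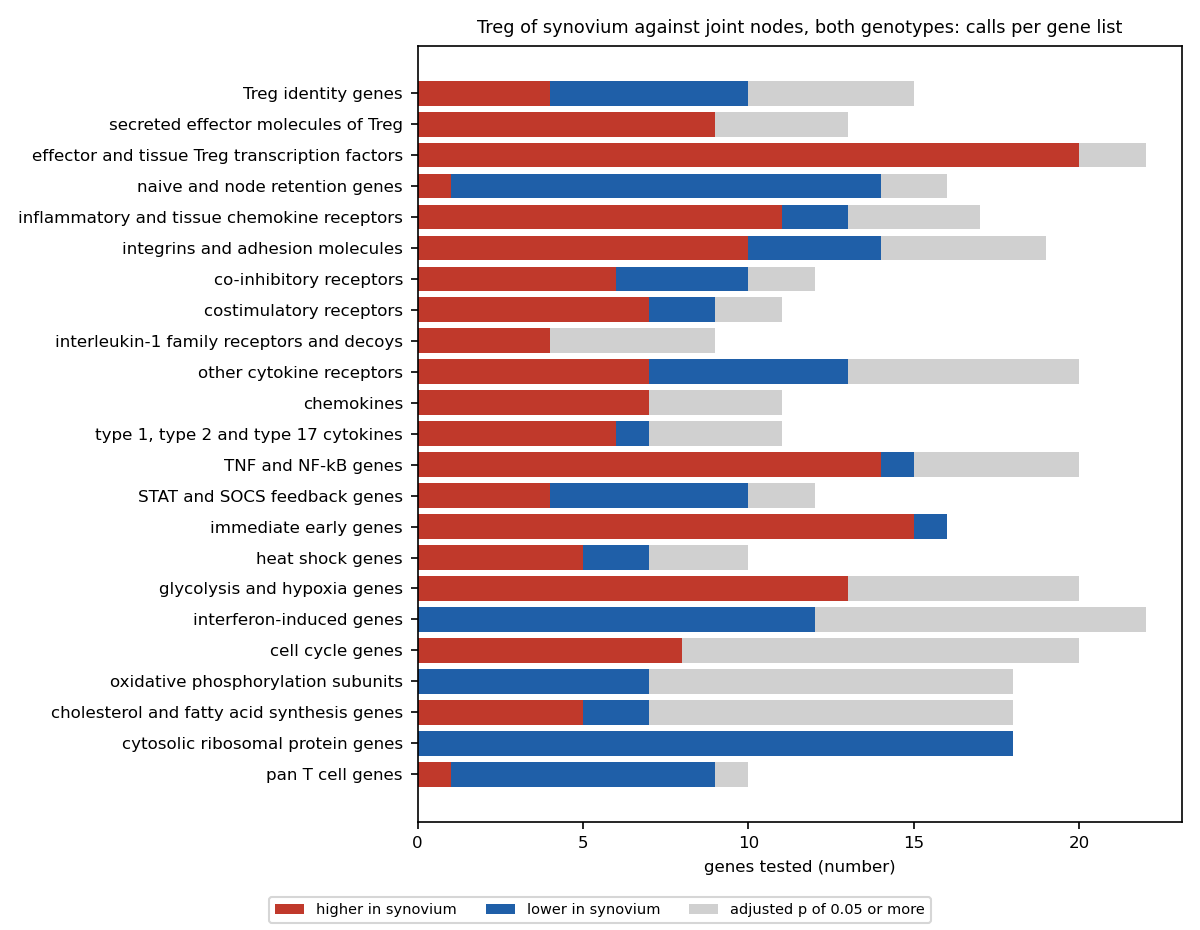
Number of genes higher, lower and not past the test in synovial Treg against node Treg, both genotypes, for each gene list (bars stacked from 0). Most transcription factors (20 of 22) and immediate early genes (15 of 16) were higher, and most naive genes (13 of 16) and all 18 ribosomal protein genes lower; over all tested genes 19.2% were higher and 18.5% lower.

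TNF responses were examined because TNF is overproduced in the model. Tnf itself stood at 135, 57.2 and 63.5 CPM in TNFdARE synovium and 27.8 and 101 CPM in WT synovium, against 115, 111 and 81.4 CPM in TNFdARE nodes and 82.4, 91.7 and 57.1 CPM in WT nodes. The sites overlapped in both genotypes, and Tnf did not pass (-0.26 ± 0.35, adjusted p = 0.592), although it did without WT synovium B (adjusted p = 0.039). Of 20 genes of the TNF and NF-kB list 14 were higher and 1 lower (median 0.76). Feedback inhibitors were among the higher genes. Tnfaip3, which encodes A20, stood at 6057, 4313 and 5811 CPM in TNFdARE synovium and 5218 and 5397 CPM in WT synovium, against 373, 288 and 229.7 CPM in TNFdARE nodes and 500, 194 and 189 CPM in WT nodes. The sites did not overlap, and Tnfaip3 was 18.1-fold higher (log2 fold change 4.18 ± 0.29, adjusted p = 5.88e-06). Nfkbia, the inhibitor IkB-alpha, ran at 2142 to 3434 CPM in synovium against 374 to 998 CPM in nodes (1.89 ± 0.24, adjusted p = 0.000266), Nfkbid at 487 to 1027 CPM in synovium against 105 to 194 CPM in nodes (2.32 ± 0.19, adjusted p = 1.43e-05) and Nfkbiz at 752 to 1098 CPM in synovium against 144 to 277 CPM in nodes (2.10 ± 0.14, adjusted p = 4.14e-06). Subunits of NF-kB moved less, with log2 fold changes of 0.96 for Rel, 0.76 for Nfkb2, 0.38 for Nfkb1 and 0.31 for Rela. Tnip1 was the lower gene (-0.33 ± 0.11).

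The window before the Nfkbia start (chr12:55492648-55492897, minus strand) is shown as the list's feedback gene with 2 matches to an NF-kB site (GGGA, any 4 bases, then CC), starting at -212 and -29.
Nfkbia: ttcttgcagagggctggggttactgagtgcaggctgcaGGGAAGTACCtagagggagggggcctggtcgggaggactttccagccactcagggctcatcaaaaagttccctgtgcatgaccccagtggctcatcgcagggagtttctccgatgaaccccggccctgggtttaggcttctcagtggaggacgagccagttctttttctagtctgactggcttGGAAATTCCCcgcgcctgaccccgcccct
That motif was in 8 of the 17 genes of the list with a window (47.1%), in 6 of 14 of the immediate early list (42.9%) and in 5317 of all 27025 genes with a window (19.7%).

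Immediate early genes, which cells transcribe rapidly after stimulation, were higher for 15 of 16, with Egr2 lower (median 2.85). Atf3, a stress-induced factor, stood at 524, 301 and 470.1 CPM in TNFdARE synovium and 292 and 441 CPM in WT synovium, against 0.0443, 0.295 and 0.146 CPM in TNFdARE nodes and 0.869, 0.284 and 0.101 CPM in WT nodes. Each synovial library was far above each node library, and Atf3 was 1457-fold higher (log2 fold change 10.51 ± 0.43, adjusted p = 2.61e-07). Fosb ran at 256 to 346 CPM in synovium against 0.911 to 23 CPM in nodes (5.30 ± 0.64, adjusted p = 0.000198), Ier3 at 43.5 to 158 CPM in synovium against 0.34 to 1.14 CPM in nodes (7.18 ± 0.35, adjusted p = 6.75e-07) and Dusp1 at 3373 to 4992 CPM in synovium against 126 to 929 CPM in nodes (3.40 ± 0.52, adjusted p = 0.000779). Summed, the list reached 16730 to 26110 CPM in synovium, against 2067 to 7532 CPM in nodes, with both libraries of experiment C the lowest nodes. Most of the list stayed higher within the second run of S numbers, a fit with 1 node library. The part of this early response in other results was not tested.

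Heat shock genes gave 5 higher and 2 lower of 10. Hspa1a, the inducible HSP70, stood at 157, 62 and 265 CPM in TNFdARE synovium and 200 and 98.3 CPM in WT synovium, against 0.31, 1.35 and 0 CPM in TNFdARE nodes and 0.478, 0.616 and 0.658 CPM in WT nodes, with no overlap (8.06 ± 0.69, adjusted p = 2.2e-05), and Hspa1b ran at 212 to 773 CPM in synovium against 0.291 to 8.4 CPM in nodes. Hsph1 and Hspd1 were lower, each by 0.95 on the log2 scale. With limma-voom the counts were 2 higher and 0 lower.

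Interferon-induced genes were lower for 12 of 22 (median -1.39, against -0.09 for all genes). None was higher by edgeR, at an unadjusted p under 0.05, with DESeq2 or with limma-voom. Usp18, an inhibitor of interferon receptor signalling, stood at 7.03, 1.146 and 1.87 CPM in TNFdARE synovium and 1.3 and 2.4 CPM in WT synovium, against 26.9, 27.4 and 31.4 CPM in TNFdARE nodes and 85.6, 86.6 and 94.5 CPM in WT nodes. Each synovial library was below each node library, and Usp18 was 20.2-fold lower (log2 fold change -4.33 ± 0.49, adjusted p = 0.000131). Oasl1 held no count in synovium, against 1.55 to 9.72 CPM in nodes, at least 57.3-fold lower with a floor of 3 counts over each group. Bst2 (tetherin) and Stat2 fell by 0.66 and 0.36 on the log2 scale.

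Outside that list, the interferon-inducible GTPase genes Ifi47 (52.3 to 92.1 CPM in synovium against 392.1 to 452 CPM in nodes; -2.65 ± 0.11, adjusted p = 2.13e-07) and Tgtp1 (0.885 to 6.46 CPM in synovium against 43.9 to 57.6 CPM in nodes; -4.25 ± 0.28, adjusted p = 3.68e-06) were among the clearest lower genes. Rsad2 (0.17 ± 0.79), Irf7 (0.24 ± 0.21) and Isg15 (-0.95 ± 0.38) did not pass. The list's sum was 401 to 470 CPM in TNFdARE synovium and 725 and 765 CPM in WT synovium, against 910 to 950 CPM in TNFdARE nodes and 1449 to 1742 CPM in WT nodes. TNFdARE libraries were thus below WT libraries at both sites, and synovium below nodes in both genotypes. With limma-voom 6 of the 22 were lower.

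The windows of Stat2 (chr10:128270248-128270497, plus strand) and Bst2 (chr8:71537473-71537722, minus strand) are shown for the element of interferon-stimulated genes (GAAA, any 2 bases, then GAAA), read on the strand opposite to the gene at -222 in Stat2 and by 2 overlapping matches at -130 and -124 in Bst2.
Stat2: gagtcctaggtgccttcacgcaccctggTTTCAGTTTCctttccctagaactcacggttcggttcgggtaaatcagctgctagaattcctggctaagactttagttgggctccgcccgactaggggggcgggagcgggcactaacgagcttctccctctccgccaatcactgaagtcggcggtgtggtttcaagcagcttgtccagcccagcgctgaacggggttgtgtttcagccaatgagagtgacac
Bst2: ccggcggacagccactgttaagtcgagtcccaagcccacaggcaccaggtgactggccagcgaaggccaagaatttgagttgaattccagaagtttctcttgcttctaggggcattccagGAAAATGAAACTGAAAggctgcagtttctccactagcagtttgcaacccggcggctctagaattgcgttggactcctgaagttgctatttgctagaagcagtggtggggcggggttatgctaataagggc
The element was in 8 of the 16 genes of the list with a window (Ifit1, Ifit3, Isg15, Oas1a, Oas3, Rsad2, Stat2 and Bst2) and in 936 of all 27025 (3.46%). Of these 8 genes, only Stat2 and Bst2, whose windows are shown, were called lower. In the whole list 12 of 22 were, and over all tested genes 18.5%. A link between the element and the lower level was not tested.

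STAT and SOCS genes were split, with 4 of 12 higher and 6 lower. Stat3 rose (454 to 1007 CPM in synovium against 444 to 558 CPM in nodes; 0.51 ± 0.09, adjusted p = 0.00178), whereas Stat5a, which transmits IL-2 signals, fell (81.7 to 143 CPM in synovium against 148 to 196 CPM in nodes; -0.67 ± 0.14, adjusted p = 0.00443), as did Socs1 and Bcl6. Socs3 stood at 216, 259 and 204 CPM in TNFdARE synovium and 877 and 608 CPM in WT synovium, against 171, 169.9 and 154 CPM in TNFdARE nodes and 211, 206 and 141 CPM in WT nodes. It was highest in WT synovium, and the site difference was 0.46 ± 0.19 in TNFdARE and 2.00 ± 0.21 in WT mice (adjusted p of the difference = 0.0292, 0.0675 blocked).

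Metabolic and growth genes were taken next. Of 20 glycolysis and hypoxia genes 13 were higher and 7 not called (median 0.97). Egln3, an oxygen-sensing hydroxylase induced by hypoxia, stood at 118, 113 and 143 CPM in TNFdARE synovium and 31.3 and 87.5 CPM in WT synovium, against 10.1, 8.65 and 10.3 CPM in TNFdARE nodes and 5.82, 6.3 and 4.86 CPM in WT nodes. The sites did not overlap (3.54 ± 0.25, adjusted p = 6.75e-06). Ero1l ran at 83.4 to 344 CPM in synovium against 45.9 to 58 CPM in nodes (2.17 ± 0.29, adjusted p = 0.000353), Bnip3, a mitophagy receptor, at 33.4 to 120.5 CPM in synovium against 8.64 to 11.7 CPM in nodes (2.94 ± 0.25, adjusted p = 1.88e-05), and Pkm at 762 to 1812 CPM in synovium against 606 to 848 CPM in nodes (1.01 ± 0.18, adjusted p = 0.00203). WT synovium A lay inside the node range for Pkm. Oxidative phosphorylation subunits were lower for 7 of 18 (median -0.30), and for 2 with limma-voom. Cholesterol and fatty acid genes gave 5 higher and 2 lower of 18 (median 0.31), where 19.2% of all genes were higher and 18.5% lower.

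All 18 cytosolic ribosomal protein genes were lower (median -0.88), with Rps19 (87.4 to 234 CPM in synovium against 359 to 457 CPM in nodes; -1.35 ± 0.15, adjusted p = 0.000139) having the largest fall. Their sum was 2357 to 5000 CPM in synovium, against 6510 to 8617 CPM in nodes. In TNFdARE mice alone all 18 were lower and in WT mice 6. Cell cycle genes were higher for 8 of 20 and not called for 12 (median 0.89). Mki67 stood at 143, 181 and 65.9 CPM in TNFdARE synovium and 156 and 117 CPM in WT synovium, against 62, 60.4 and 70.3 CPM in TNFdARE nodes and 31.4, 57.6 and 55.7 CPM in WT nodes (1.25 ± 0.26, adjusted p = 0.00436), and TNFdARE synovium C overlapped the nodes. That count moved to 15 higher without WT synovium A and to 7 higher and 4 lower without WT synovium B.

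Pan T cell genes were lower for 8 of 10, with Cd2 higher (median -0.47). Whether less of the RNA came from T cells was not tested. Cd3e stood at 501, 565 and 556 CPM in TNFdARE synovium and 496 and 477 CPM in WT synovium, against 988, 967 and 952 CPM in TNFdARE nodes and 995, 825 and 838 CPM in WT nodes. Each synovial library was below each node library (-0.85 ± 0.08, adjusted p = 3.19e-05). Trac, the constant region of the T cell receptor alpha chain, did not pass (-0.01 ± 0.09). Cd4 fell in WT mice (-0.73 ± 0.11) and not in TNFdARE mice (0.27 ± 0.10; adjusted p of the difference = 0.0142, 0.063 blocked).

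Among 14 type 1, type 2 and type 17 cytokines 11 were tested, of which 6 were higher and 1 lower (median 6.15, or 5.82 with genes at 0 in a group set at their floor). The low levels and a single library carried most of this. Il17a stood at 17.7, 7.5 and 4.48 CPM in TNFdARE synovium and 0 and 49.9 CPM in WT synovium, against 0, 0 and 0 CPM in TNFdARE nodes and 0, 0 and 0 CPM in WT nodes. WT synovium B was the highest, WT synovium A held none, and the call was lost without WT synovium B and with the experiment letter as a block (adjusted p = 0.065). That library also held 73.1 CPM of Il5, 45 CPM of Csf2, 28 CPM of Il22, 28.6 CPM of Il2 and 139 CPM of gamma delta T cell markers, which summed to 4.72 to 14.7 CPM in the other synovial libraries. Without it the counts were 0 higher and 2 lower. Lta, which encodes lymphotoxin-alpha, was lower in both genotypes (11.5 to 45.1 CPM in synovium against 136 to 200 CPM in nodes; -2.89 ± 0.30, adjusted p = 7.54e-05).

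Of 11 chemokines 7 were higher and 4 not called (median 1.61), and 3 without WT synovium B. Cxcl2, a neutrophil attractant, stood at 456, 346 and 448 CPM in TNFdARE synovium and 119.5 and 239.6 CPM in WT synovium, against 2.57, 0.549 and 0.437 CPM in TNFdARE nodes and 2.82, 1.42 and 0.405 CPM in WT nodes. The sites did not overlap, and Cxcl2 was 199-fold higher (log2 fold change 7.64 ± 0.55, adjusted p = 7.08e-06). Cxcl10 ran at 16.4 to 71.1 CPM in synovium against 4.15 to 10.1 CPM in nodes (2.67 ± 0.36, adjusted p = 0.000383), and Ccl5 ran at 20.4 to 30.4 CPM in synovium against 3.39 to 21.5 CPM in nodes (1.36 ± 0.24, adjusted p = 0.0019).

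Outside the lists, the largest fold changes of all belonged to stromal genes. Col3a1 stood at 2406, 2933 and 545 CPM in TNFdARE synovium and 5502 and 4604 CPM in WT synovium, against 0.0443, 0 and 0 CPM in TNFdARE nodes and 0.174, 0 and 0 CPM in WT nodes, Dcn at 871, 602 and 417 CPM in TNFdARE synovium and 5797 and 3904 CPM in WT synovium, against 0.443, 0.127 and 0.0486 CPM in TNFdARE nodes and 0.217, 0.0947 and 0 CPM in WT nodes, and C3, complement component 3, at 449, 506 and 158 CPM in TNFdARE synovium and 988 and 566 CPM in WT synovium, against 1.06, 0.633 and 1.07 CPM in TNFdARE nodes and 0.434, 0.284 and 0.101 CPM in WT nodes. These followed the sum of stroma markers, of which 14 of 15 were higher in synovium (median 12.6, or 10.8 with genes at 0 in a group at their floor) and Thy1 did not pass. WT synovium was highest for Col3a1, Dcn and C3 alike. Endothelial markers were higher for 7 of 8, and bone and cartilage markers for 8 of 9, while the neutrophil list had no gene past the filter. Summed endothelial markers overlapped between the sites, at 122.8 to 627.7 CPM in synovium against 172.4 to 263.1 CPM in nodes. Summed bone and cartilage markers did too, at 110.5 to 1651 CPM in synovium against 142.5 to 194.3 CPM in nodes. In TNFdARE mice alone 3 endothelial and 2 bone and cartilage markers were higher, and in WT mice 0 and 6.

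Other called genes with no overlap between the sites were not stroma markers of the list. Adam8, a metalloprotease of leukocytes, stood at 604, 529.6 and 558 CPM in TNFdARE synovium and 348 and 415 CPM in WT synovium, against 14.7, 13.5 and 12.1 CPM in TNFdARE nodes and 10.4, 10.8 and 11 CPM in WT nodes, and was 38.6-fold higher (log2 fold change 5.27 ± 0.09, adjusted p = 2.04e-09). Emp1, an epithelial membrane protein, ran at 206 to 575 CPM in synovium against 1.62 to 2.45 CPM in nodes (7.63 ± 0.23, adjusted p = 3.99e-08). Among lower genes, Evl, an actin regulator, ran at 8.03 to 74.6 CPM in synovium against 199.8 to 254 CPM in nodes (-3.29 ± 0.18, adjusted p = 1.4e-06), Traf3ip3 at 145 to 233 CPM in synovium against 449 to 554 CPM in nodes (-1.42 ± 0.07, adjusted p = 4.9e-07), Lfng, which modifies Notch, at 65.4 to 91.9 CPM in synovium against 304 to 342 CPM in nodes (-2.09 ± 0.11, adjusted p = 7.86e-07), and Ms4a4b, a membrane protein of T cells, at 96.8 to 501 CPM in synovium against 975 to 1424 CPM in nodes (-2.34 ± 0.13, adjusted p = 1.49e-06). The largest falls among sufficiently abundant genes included Lad1 (0 to 4.01 CPM in synovium against 65.2 to 118 CPM in nodes) and Tbxa2r, the thromboxane receptor (0 to 5.79 CPM in synovium against 41.5 to 52 CPM in nodes).

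The site difference of the joint was set against that of gut Treg, ileum over mesenteric node, in a fit of 22 Treg libraries. The gut groups were ileum (3 TNFdARE, 3 WT) and mesenteric nodes (2 TNFdARE, 3 WT). Of 18066 genes 1492 differed between joint and gut (8.26%), with 563 having a higher (3.12%) and 929 a lower log2 fold change (5.14%) in the joint than in the gut. With limma-voom the balance was the other way, with 538 higher and 258 lower. Il10 stood at 652 ± 166 CPM in TNFdARE ileum and 787 ± 139 CPM in WT ileum (SD, n = 3 each), against 90.4 ± 75.6 CPM in TNFdARE mesenteric nodes (SD, n = 2) and 39.5 ± 15 CPM in WT mesenteric nodes (SD, n = 3). Its log2 fold change was 6.46 ± 0.35 in the joint and 3.58 ± 0.33 in the gut, and these differed (adjusted p = 0.000322). Ccr1 likewise gave 6.66 ± 0.44 in the joint and 3.50 ± 0.41 in the gut (0.00112), and Klrg1 3.90 ± 0.20 and 2.96 ± 0.21 (0.0309). Areg did not pass, at 6.49 ± 0.35 in the joint and 7.26 ± 0.41 in the gut (difference -0.77 ± 0.43, adjusted p = 0.31). These genes were given beforehand as markers of synovial Treg. Their values here, and against Tconv below, describe them without being an independent finding.

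Genes of the chemokine receptor list, which includes Ltb4r1, were among those that differed between joint and gut. Ltb4r1 gave 4.95 ± 0.31 in the joint and 1.52 ± 0.29 in the gut (4.13e-05), and Cxcr6 4.62 ± 0.33 and 1.49 ± 0.31 (0.000163). Ccr2 also had a higher log2 fold change in the joint, by 1.52. Ccr9 fell in the joint and rose in the gut, where the ileum over mesenteric difference was 1.54 ± 0.33 (adjusted p of the difference between joint and gut = 1.49e-06). Over the list 6 of 17 had a higher and 2 a lower log2 fold change in the joint.

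Crip1, a LIM domain protein, gave 3.39 ± 0.13 in the joint and 0.14 ± 0.13 in the gut (difference 3.25 ± 0.18, adjusted p = 1.79e-08). Emp1 (5.92 ± 0.54), Lgals3 (3.47 ± 0.38), S100a4 (2.77 ± 0.25) and Adam8 (3.06 ± 0.22) also had higher log2 fold changes in the joint by the differences given, as did the joint lubricant gene Prg4 (4.81 ± 0.59), which is in the stroma list. Lrrc32 (-2.33 ± 0.18), Satb1 (-2.66 ± 0.22) and Rel (-2.04 ± 0.25) had lower log2 fold changes in the joint. Of the glycolysis and hypoxia list 9 of 20 had a higher log2 fold change in the joint than in the gut. Of the effector and tissue transcription factors 4 of 22 did, and 17 of 22 were higher in ileum than in mesenteric nodes, where 14.6% of all genes were.

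**Figure D5:**
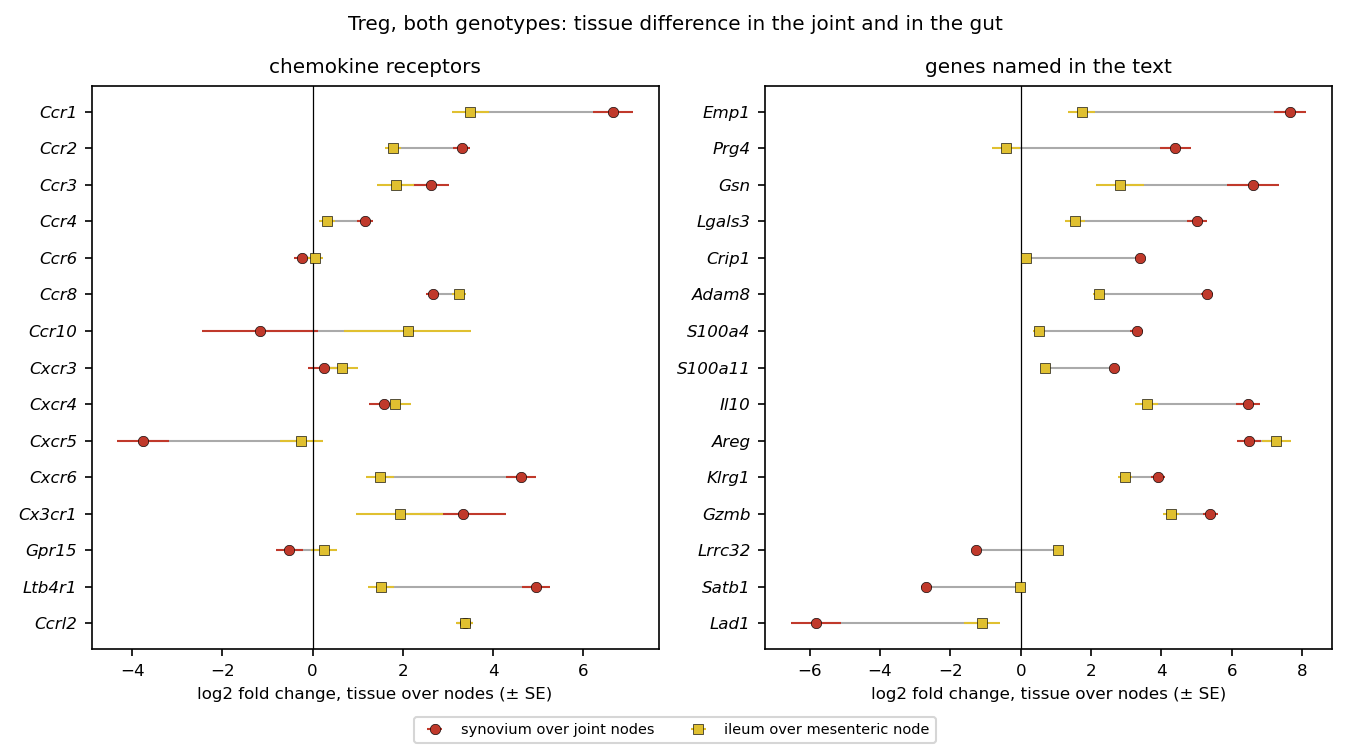
Log2 fold change ± SE (horizontal axis) of synovium over joint nodes and of ileum over mesenteric nodes in Treg, both genotypes, with 1 gene per line, for chemokine receptors (left) and other named genes (right), Ccr9 left out. Crip1 lies at 3.39 in the joint and 0.14 in the gut, and Il10 at 6.46 and 3.58.

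Treg and Tconv were compared at the same sites in TNFdARE mice, with 2 synovial and 3 node Tconv libraries. The sort bears on this comparison: Foxp3 stood at 628 and 622 CPM in TNFdARE synovial Tconv, against 35.9, 29.1 and 39.98 CPM in TNFdARE node Tconv. The synovial libraries labelled Tconv thus held Foxp3 far above the node Tconv libraries and below the TNFdARE synovial Treg libraries. They were somewhat above the Treg library WT synovium B, whose value comes from another fit. Each direction below rests on these synovial Tconv libraries. Of 16755 genes 538 had a site difference that differed between the cell types (3.21%), 73 with a higher (0.436%) and 465 with a lower log2 fold change (2.78%) in Treg than in Tconv. The first number is unstable, with 362 higher and 430 lower without synovial Tconv library B, 333 and 735 with no filter and 311 and 825 with DESeq2. The Treg identity list made up part of the second group, with 13 of 15 lower in this sense, Foxp3 among them (-3.88 ± 0.17, adjusted p = 2.35e-06). Il2ra stood at 647 and 708 CPM in TNFdARE synovial Tconv, against 15.7, 14.6 and 17.5 CPM in TNFdARE node Tconv.

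Effector genes also rose in the synovial libraries labelled Tconv. Of 22 effector and tissue transcription factors, 20 were higher in synovium in TNFdARE Treg and 21 in Tconv (median log2 fold changes 2.71 and 3.38). Of 17 chemokine receptors 8 and 14 were higher (2.11 and 4.35) and 3 and 1 lower. The log2 fold change was lower in Treg than in Tconv for 9 factors and 9 receptors and higher for 0. Over all genes 2.78% were lower and 0.436% higher in this sense. Il10 gave 7.08 ± 0.29 in Treg and 8.45 ± 0.34 in Tconv, a difference that did not pass (0.169), and Areg 6.09 ± 0.35 and 8.60 ± 0.43, which did pass (0.0295). The difference for Gzmb did not pass (-0.94 ± 0.33, adjusted p = 0.232). Among the 73, Sgk1, the serum- and glucocorticoid-regulated kinase, gave 2.61 ± 0.27 in Treg and -0.10 ± 0.28 in Tconv (adjusted p of the difference = 0.00347), and Cd27 fell less in Treg (1.12 ± 0.19). In the same fit 13 of 16 immediate early genes were higher in synovium in TNFdARE Treg (15.4% of all genes) and 14 in Tconv (17%). Of 22 interferon-induced genes, 7 were lower in TNFdARE Treg (12.7% of all genes) and 8 in Tconv (10.2%).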

How the data were processed

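RNA was extracted with the RNeasy Micro kit and amplified with SMART-Seq v4 PLUS, per the labels' protocols. These name different amounts of input RNA and do not say which library had which amount. Input may therefore differ between the sites, and its part in the results was not tested. The deposited counts are raw read counts per Ensembl gene. Per the submitters' processing notes, cutadapt 1.15, Bowtie2 2.3.3.1 and the GRCm38 build were used, and the counting program, its strand setting and the annotation are not given in the sources used here. A table of FPKM values was not used here. Symbols came from GENCODE M21 for 46091 of 46603 gene IDs.

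Counts were scaled with TMM factors and tested with edgeR 4.0.16 (quasi-likelihood F test, filterByExpr, Benjamini-Hochberg adjustment) in 11 Treg libraries, in 22 Treg libraries for the gut and in 11 TNFdARE libraries for Tconv. CPM of genes are TMM-scaled, and sums of marker lists are CPM of total counts. A group with no count was given a floor of 3 counts over the group, which covers counting error only. The members and gene lists were chosen with earlier results of these data known. Genes outside the lists were named by rule: up to 8 per direction by fold change and up to 8 by adjusted p, with mean log2 CPM of at least 3, protein-coding, not sex-linked and, between synovium and nodes, with no overlap of libraries. For the difference between genotypes the 8 smallest adjusted p-values were named, and from each list up to 4 members by adjusted p, others only with their values. Foxp3 and Tnf were always named, and Il10, Areg, Klrg1 and Ccr1 were named because they were given beforehand as markers. A few genes that these rules or lists hold are not reported here by name, though they stay in the tests and the list counts.

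Per the labels, equal letters mark the same experiment, so letters pair libraries across sites. Deviations of same-letter libraries from their group means correlated at 0.0584, 0.0131 and 0.0455 in TNFdARE and at 0.027 and -0.00137 in WT mice. Alternatives were RLE factors, total counts alone, no filter, DESeq2 1.42.0, limma-voom 3.58.1 with quality weights, the letter as a block, the run of S numbers as a covariate or within runs, other sets of libraries in the fit and each library left out. Scripts were tested on simulated data before use.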

Additional observations from a re-analysis of the deposited data

Results flagged for a closer look

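The site difference of Treg, synovium over joint nodes, differed between TNFdARE and WT mice by a test of the difference itself (edgeR) for the 8 genes with the smallest adjusted p-values. The TNFdARE minus WT differences on the log2 scale were -2.22 for Cst3, 2.01 for Pcmtd1, -1.57 for Myc and 7.83 for Zfp60. For genes with no count in a group the adjusted p is given in place of a difference, with 0.00404 for Zfp623, 0.00456 for Tmem35b and for Zfp658, and 0.00611 for Zfp113. With limma-voom, Cst3 alone of these passed.

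Site differences also differed between joint and gut Treg, by the same kind of test. The joint minus gut difference on the log2 scale was positive for Emp1 (5.92), Prg4 (4.81), Gsn (3.78), Lgals3 (3.47), Ltb4r1 (3.42), Ppic (3.38), Fosb (3.38), Crip1 (3.25), Rnase4 (3.08), Adam8 (3.06), S100a4 (2.77), Plin2 (2.42), S100a11 (1.97), AI467606 (1.70) and Snx9 (1.65). It was negative for Art2b (-5.21), Lad1 (-4.72), Lrig1 (-2.88), Satb1 (-2.66), Plcxd2 (-2.62), Etv3 (-2.34), Lrrc32 (-2.33) and Map4k2 (-1.06). Among genes with a group at 0, the adjusted p was 1.49e-06 for Ccr9, 8.99e-06 for Zfp623, 1.12e-05 for Zfp113, 2.83e-05 for Dzip3, 0.00815 for Sh3bgrl2 and 0.0101 for Dscam. With limma-voom Ccr9, Sh3bgrl2, Dzip3, Zfp113, Art2b, Dscam, Zfp623, Lad1 and Fosb did not pass, and Fosb was also lost in most fits that left out 1 library. Prg4 and Gsn are expressed by synovial stroma too, whose summed markers were 1994 to 19880 CPM in the synovial Treg libraries, against 95.9 to 109 CPM in the joint nodes. The part of that RNA in these differences was not tested.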

How the results depend on the processing

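Between synovium and nodes over both genotypes 6177 genes passed, and 3347 did with limma-voom, 3639 with the run of S numbers as a covariate and 173 within the second run in WT mice. The count in TNFdARE mice was 3216, against 1980 with the covariate and 5083 in a fit of all 42 libraries. In WT mice it was 4055, against 1490 with limma-voom, 2643 with the covariate and 6850 in the 42-library fit. For TNFdARE minus WT it was 278, against 163 with no filter, 1336 with DESeq2, 2 with limma-voom, 134 with the covariate and 1495 in the 42-library fit. For joint minus gut it was 1492, against 2651 with DESeq2, 796 with limma-voom and 2638 in the 42-library fit, and for Treg minus Tconv 538, against 1068 with no filter and 1136 with DESeq2. With the experiment letter as a replicate block the counts were 5072, 2729, 2853, 15, 1440 and 441 in the same order of comparisons. Leaving out 1 library gave 4723 (without TNFdARE node B) to 8459 (without WT synovium B) over both genotypes, 1924 to 5149 in TNFdARE, 2335 (without WT node C) to 7033 (without WT synovium B) in WT, 29 (without TNFdARE node B) to 3867 (without WT synovium B) for TNFdARE minus WT, 800 (without TNFdARE mesenteric node B) to 3884 (without WT synovium B) for joint minus gut, and 329 (without TNFdARE Treg node A) to 1068 (without TNFdARE Treg synovium B) for Treg minus Tconv. Chosen after seeing the data, a fit without WT synovium A and TNFdARE synovium B gave 8138 calls over both genotypes, and one on genes with a count in every library 4392. Of the named genes and marker genes, H2-Ab1 changed sign without WT synovium B (-0.054, adjusted p = 0.956), the lowest of values that reached 3.58 when 1 library was left out, and Csf1r without WT synovium A and TNFdARE synovium B (-0.44, adjusted p = 0.763). Over both genotypes 3194 of the other values for named and marker genes stayed on their side of the threshold, 212 lost the call and 4 gained it. With limma-voom the list counts, higher and lower, were 8 and 2 for integrins, 6 and 2 for co-inhibitory receptors, 4 and 0 for chemokines, 3 and 1 for cytokines, 2 and 4 for STAT and SOCS genes, 6 and 0 for the cell cycle and 0 and 5 for pan T cell genes. With the covariate the cell cycle gave 5 and 0. With the block endothelial markers gave 4 and 0 and bone and cartilage markers 5 and 1. The cause of these changes was not tested. With 5 against 6 libraries, genes at 0 in some of the 4 synovial libraries of the second run are common, 22.4% of the higher, 34.4% of the lower and 38.4% of the uncalled genes, and low levels are least certain there.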
